A study of Mus musculus with 25 samples.

Results

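The testis histone variants followed here are 10 of the 29244 gene symbols in the count tables of a Drop-seq study of the mouse testis. They are the linker histone genes Hist1h1t, H1fnt and Hils1, the H2A and H2B genes Hist1h2ba, Hist1h2aa, Hist1h2al and H2afb1, and the replacement variants H2afx, H3f3a and H3f3b. They were taken by symbol, and all 10 had counts. The study compared spermatogenesis in wild-type mice with that in strains carrying testis defects, using droplets that join single cells with barcoded beads. The beads capture transcripts at the 3′ end, and a unique molecular identifier (UMI) lets every captured molecule count as 1. Of the 25 libraries used, 11 came from whole testis of wild-type C57BL/6 mice, 6 from Mlh3-/- mice, 2 from Cul4a-/- mice and 2 from CNP eGFP BAC TRAP mice, and 4 held sorted cells. Samples of another mutant strain were not analysed here.

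Wild-type mice were from 3 months 1 day to 9 months 14 days old and Mlh3-/- mice, on a B6;129 background, from 2 months 21 days to 8 months 30 days. Cul4a-/- mice, also on B6;129, were 1 month 18 days and 1 month 21 days old. The CNP mice, C57BL/6 with an eGFP transgene on a bacterial artificial chromosome, were 2 months 14 days and 2 months 16 days old. These are the ages of the labels, and the study's own sample list gives those of the Cul4a-/- and CNP mice the other way round. The genotype of Cul4a-/- mice cannot be told apart from their background. By the labels, Cul4a-/- and CNP mice were all younger than every wild-type mouse, so genotype and age cannot be told apart in these strains either. For Mlh3-/- mice the study's methods name a B6.129 line in place of B6;129, and the part of the background was not tested. The sorted libraries were GFP+ spermatogonia of 7-day-old Pouf51-EGFP mice (C57BL/6 by the labels and a B6;CBA line with a Pou5f1-EGFP transgene by the methods), pooled from 5 litter mates, and primary spermatocytes, secondary spermatocytes and spermatids separated by Hoechst DNA staining from wild-type mice of 2 months 21 days. Wild-type replicates 1 and 2 and the spermatogonia were dissociated enzymatically and all other libraries mechanically. The labels name no treatment. The wild-type libraries came from separate animals. For the other strains this is not stated, so p-values there measure the spread between libraries, which may be technical.

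Most of the DNA of a sperm cell is packed by protamines, and the exchange begins with histone variants that are made in or enriched in germ cells. Hist1h1t encodes the linker histone H1t of spermatocytes, and H1fnt (H1t2) and Hils1 encode linker histones of spermatids. Hist1h2ba (TH2B) and Hist1h2aa (TH2A) encode testis H2B and H2A that replace their somatic counterparts in the course of spermatogenesis, and H2afb1 belongs to the short H2A variants, which form less stable nucleosomes in germ cells. H2afx encodes H2AX, which is phosphorylated at DNA breaks and on the silenced sex chromosomes of spermatocytes, and H3f3a and H3f3b encode the same H3.3 protein, which is laid down outside DNA replication.

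In GRCm38, the build of the authors' alignments, 3 of the genes lie in the large histone cluster of chromosome 13: Hist1h1t at chr13:23695814-23696725 (plus strand), Hist1h2ba at chr13:23933773-23934156 (minus) and Hist1h2aa at chr13:23934462-23934851 (plus). H1fnt lies at chr15:98255986-98257293 (minus), Hils1 at chr11:94967593-94968456 (plus), H2afx at chr9:44334694-44336077 (plus), H3f3a at chr1:180800832-180813943 (minus) and H3f3b at chr11:116021912-116027962 (minus). H3f3a has 3 to 5 exons and H3f3b 3 to 6 in the annotated transcripts, and the other members have 1 exon. Hist1h2al is annotated as a processed pseudogene at chr13:51202727-51203065 (minus), and RefSeq lists that symbol under H2af-ps2. The annotation used here places H2afb1 at chrX:117014757-117015104 (plus strand, 348 bases, 1 exon), but its counts could not be tied to that locus alone. RefSeq gives it as another name of H2al2a at chr2:17996417-17996958 and of H2ab1 at chrX:117014757-117015104, and Gm14920, another name of only the second gene, had its own row with 25 UMIs against 26491 for H2afb1. Reads of near-identical copies of these genes could have been shared between rows, and strand in the counting is not given in the sources used here.

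RefSeq promoters (250 bases before to 50 bases after the gene start, GRCm38.p6) were matched for 7 of the 10 genes. The 4 shown are those of the spermatocyte linker histone, of the spermatid linker histone pair and of the divergent TH2A and TH2B pair, whose levels the results below turn on. H1f6, H1f7, H2ac1 and H2bc1 are the RefSeq symbols of Hist1h1t, H1fnt, Hist1h2aa and Hist1h2ba. Capitals mark 5 motifs on either strand: TATAAA (held by 13.6% of the 32851 promoters of the table), CCAAT (37.4%), TGACGT of the cAMP response element (7.51%), GGGCGG of the GC box (35.7%) and AAACACA of the H1 box (7.18%).
H1f6, chr13:23695561-23695860, plus strand: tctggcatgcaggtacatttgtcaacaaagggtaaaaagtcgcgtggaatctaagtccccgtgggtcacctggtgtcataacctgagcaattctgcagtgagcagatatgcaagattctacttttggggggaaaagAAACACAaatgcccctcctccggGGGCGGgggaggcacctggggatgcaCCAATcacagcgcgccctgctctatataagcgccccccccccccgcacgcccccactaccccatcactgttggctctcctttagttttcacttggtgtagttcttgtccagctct
H1f7, chr15:98257258-98257557, minus strand: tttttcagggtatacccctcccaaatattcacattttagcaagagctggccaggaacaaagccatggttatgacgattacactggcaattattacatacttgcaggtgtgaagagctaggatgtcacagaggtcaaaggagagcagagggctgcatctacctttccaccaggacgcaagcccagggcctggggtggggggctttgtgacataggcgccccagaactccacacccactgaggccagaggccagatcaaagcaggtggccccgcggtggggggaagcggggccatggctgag
Hils1, chr11:94967343-94967642, plus strand: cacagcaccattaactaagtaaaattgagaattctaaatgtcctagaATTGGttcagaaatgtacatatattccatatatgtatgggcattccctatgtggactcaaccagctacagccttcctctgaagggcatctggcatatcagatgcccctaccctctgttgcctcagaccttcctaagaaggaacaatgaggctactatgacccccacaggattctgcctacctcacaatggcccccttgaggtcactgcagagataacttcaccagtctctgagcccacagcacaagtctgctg
H2ac1, chr13:23934187-23934486, plus strand: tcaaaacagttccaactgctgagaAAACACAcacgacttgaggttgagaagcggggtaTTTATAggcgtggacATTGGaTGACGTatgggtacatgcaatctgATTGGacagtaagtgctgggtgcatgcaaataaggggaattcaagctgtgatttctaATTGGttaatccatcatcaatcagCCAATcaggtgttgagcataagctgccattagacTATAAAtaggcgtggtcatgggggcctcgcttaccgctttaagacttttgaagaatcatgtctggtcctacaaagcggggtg
H1f6 held 1 CCAAT, 1 GGGCGG and 1 AAACACA, and Hils1 held 1 CCAAT. H1f7 held none of the 5 motifs in this window. The starts of H2ac1 and H2bc1 lay 280 bases apart on opposite strands, so the window printed for H2ac1 shares 220 bases with that of H2bc1, and its 2 TATAAA, 4 CCAAT, 1 TGACGT and 1 AAACACA include those the pair shares. A match is a description of these letters and not of a bound factor.

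Histone messages of the S phase type end in a stem-loop and carry no poly(A) tail, which matters for beads that capture poly(A). The stem-loop sequence was absent from the last 150 bases of the annotated transcripts of all 10 members and present in 16 of 62 canonical histone genes (25.8%), while Hist1h1t held it farther from its annotated end. A poly(A) signal was found in the last 50 bases in 5 of the 10 members and in 66.2% of 26843 genes. The models of Hist1h2ba (384 bases), Hist1h2aa (390), Hist1h2al (339) and H2afb1 (348) hold only coding length, so their ends were not covered by this search. How far capture sets the levels of single members was not tested, and levels are therefore compared for 1 gene between cells and not between genes.

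The libraries held 48642 barcodes and 65063387 UMIs, with 357235 to 3829176 UMIs in wild-type, 450745 to 6340116 in Mlh3-/-, 9691555 to 9745302 in Cul4a-/-, 775386 to 1054964 in CNP and 107117 to 1168498 in sorted libraries. Of 48081 distinct barcode sequences, 430 occurred in more than 1 library. After the cell filters 36619 barcodes remained, which fell into 47 clusters built without 45 histone genes, so that no member shaped a cluster or its name. Clusters were called by marker genes, which in wild-type gave 3320 elongating spermatid-like cells, 2820 meiotic division-like cells, 2680 round spermatid-like cells, 487 pachytene-like cells and 232 leptotene/zygotene-like cells, and 15251 cells stayed unnamed. The genes deleted in the strains gave no check of the labels over whole libraries, where the mix of cells differs between strains. Counts at the 3′ end also need not fall in a deleted part, and where they fell was not examined. Within its own clusters, the study reports Mlh3 itself as differing between wild-type and Mlh3-/- cells. Mlh3 was at 44.7 ± 18.4 CPM (UMIs of the gene scaled to an equal total per library) in wild-type and 49.8 ± 22.7 in Mlh3-/- libraries (SD). Cul4a was at 30.7 ± 12.5 in wild-type and 51.8 ± 3.84 in Cul4a-/- libraries. Cnp, near the counting floor, gave no check either, at 1.89 ± 1.73 in wild-type, 5.29 ± 3.46 in CNP (9 UMIs) and 8.41 ± 5.47 in Mlh3-/- libraries.

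Within wild-type, UMIs were summed per library and class where a library had at least 10 cells of the class, which left 8 libraries for the leptotene/zygotene-like class, 9 for the pachytene-like class and 11 for each later class. Levels are CPM of the class sum, with mean ± SD over libraries, and differences between neighbouring classes were tested in edgeR (quasi-likelihood) with the animal as a block, TMM scaling and Benjamini-Hochberg adjustment over 17563 genes. H1fnt, Hils1 and H2afb1 rose into the spermatid classes, and Hist1h1t had its highest means in spermatocytes. H3f3b fell into the meiotic division-like class and again into the elongating spermatid-like class. H2afx fell into the meiotic division-like and the round spermatid-like class. The study lists the markers of the meiotic division-like class under diplotene and divisions, so falls into it are not timed to the divisions. The plot of the 10 members by class shows all libraries.

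**Figure D1:**
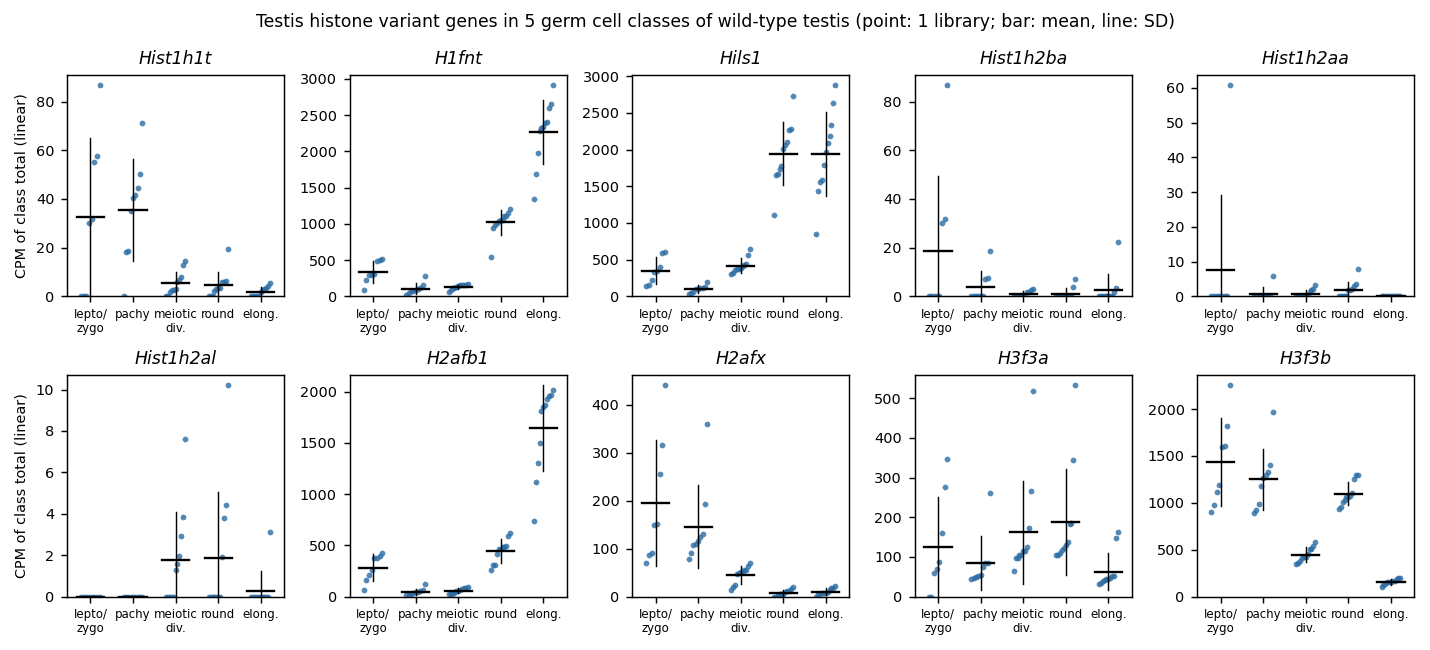
CPM (linear axis from 0) of each of the 10 members in the 5 germ cell classes of wild-type testis, in order of development; points are libraries, the bar is the mean and the line the SD, ending at 0. H1fnt and H2afb1 are highest in elongating spermatid-like cells, with means of 2267 and 1641, and H2afx is at most 21.9 in every library of both spermatid classes.

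Among the linker histones, Hist1h1t was seen mainly in spermatocytes, at low level. In leptotene/zygotene-like cells its lowest, median and highest library were at 0, 31.0 and 86.8 CPM (mean 32.7 ± 32.2, n = 8, 6 UMIs), and in pachytene-like cells at 0, 40.2 and 71.4 (35.5 ± 20.9, n = 9, 46 UMIs). In meiotic division-like cells they were at 0, 3.01 and 14.6 (5.26 ± 4.87, n = 11). The last of these classes overlapped the pachytene-like one, and the fitted level fell by 2.59 ± 0.37 on the log2 scale (SE, edgeR adjusted p = 1.29e-11). Round spermatid-like cells had a mean of 4.42 ± 5.48 and elongating spermatid-like cells of 1.85 ± 1.99, and neither step passed the test. Within the pachytene-like cells the gene was at 46.5 CPM in cluster 13 and at 11.8 in cluster 14, a description of wild-type means.

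H1fnt, needed for chromatin condensation in spermatids, rose at both steps into the spermatid classes. Its lowest, median and highest library stood at 61.8, 135 and 170 CPM in meiotic division-like cells (mean 128 ± 32.3), at 539, 1049 and 1206 in round spermatid-like cells (1018 ± 175) and at 1345, 2340 and 2915 in elongating spermatid-like cells (2267 ± 446; n = 11 each). These ranges did not overlap. The fitted log2 difference was 3.28 ± 0.11 for the first step (edgeR adjusted p = 1.73e-207) and 1.67 ± 0.09 for the second (adjusted p = 5.98e-77).

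Hils1, the other spermatid linker histone, rose at the step into the meiotic division-like class and at the next one. It stood at 36.5, 105 and 201 CPM (lowest, median and highest library) in pachytene-like cells (99.0 ± 49.9, n = 9) and at 306, 379 and 649 in meiotic division-like cells (417 ± 104, n = 11), with no overlap and a fitted log2 difference of 2.53 ± 0.16 (edgeR adjusted p = 1.34e-55). In round spermatid-like cells it reached 1113, 2002 and 2730 (1946 ± 425), again above every library of the class before, with a difference of 2.504 ± 0.09 (adjusted p = 6.74e-152). Elongating spermatid-like cells, at 852, 1967 and 2881 (1939 ± 578), overlapped with them over most of the range. The fitted difference at that last step was 0.51 ± 0.09 with TMM scaling (adjusted p = 2.12e-08) and -0.0061 when libraries were scaled by their totals alone, so its direction depended on the scaling. Within the elongating spermatid-like cells its wild-type means were 502 CPM in cluster 16, 642 in cluster 5, 2811 in cluster 10 and 3702 in cluster 24, where H1fnt had 539, 2480, 2272 and 2798. In the meiotic division-like class, cluster 12 held 766 of 2820 wild-type cells, and its second-best marker class was round spermatid. The part of that cluster in the first rise of Hils1 was not tested.

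H2afb1, the short H2A, rose at both steps into the spermatid classes. Its lowest, median and highest library were at 20.4, 54.9 and 91.3 CPM in meiotic division-like cells (57.0 ± 24.9), at 262, 469 and 622 in round spermatid-like cells (445 ± 115) and at 740, 1848 and 2011 in elongating spermatid-like cells (1641 ± 421; n = 11 each), with no overlap between neighbours. The log2 differences were 3.26 ± 0.12 (edgeR adjusted p = 9.47e-160) and 2.43 ± 0.09 (adjusted p = 2.16e-149). Inside the round spermatid-like class its wild-type means ran from 151 CPM in cluster 26 and 176 in cluster 11 to 445 in cluster 7 and 878 in cluster 17, and in elongating spermatid-like cluster 5 the mean was 2220. The last step of H2afb1 kept its direction under each scaling tried.

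These 3 genes also had counts in somatic cells. In Sertoli-like cells, the somatic nurse cells, the wild-type means were 855 ± 306 CPM for H1fnt, 778 ± 230 for Hils1 and 544 ± 168 for H2afb1 (n = 4), above the leptotene/zygotene-like means of 337 ± 151, 350 ± 181 and 283 ± 129 (n = 8) and the pachytene-like means of 104 ± 76.3, 99.0 ± 49.9 and 45.8 ± 31.4 (n = 9). Median depths were 609.5 UMIs per cell in the Sertoli-like, 709.5 in the leptotene/zygotene-like and 1817 in the pachytene-like class. The Sertoli-like means also lay above the meiotic division-like means of all 3 genes and the round spermatid-like mean of H2afb1 given above, so a level in any of these classes is not by itself read as expression. All 3 fell from leptotene/zygotene-like to pachytene-like cells (log2 differences of -1.18 ± 0.28 for H1fnt, -1.35 ± 0.28 for Hils1 and -2.11 ± 0.33 for H2afb1), and 10 of the 12 elongating spermatid markers fell with them. The call of Hils1 was lost in 1 of 10 alternatives, with cell limits on UMIs and genes only (adjusted p = 0.0525). The ratio of Hils1 to H1fnt UMIs was 1.01 in leptotene/zygotene-like, 0.901 in pachytene-like and 0.914 in Sertoli-like cells, and it was 3.06 in meiotic division-like, 1.88 in round spermatid-like and 0.847 in elongating spermatid-like cells. The ratio of H2afb1 to H1fnt was 0.959, 0.427 and 0.517 in the first 3 of these and 0.439, 0.424 and 0.739 in the last 3. The part of free RNA in these levels was not tested further.

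**Figure D2:**
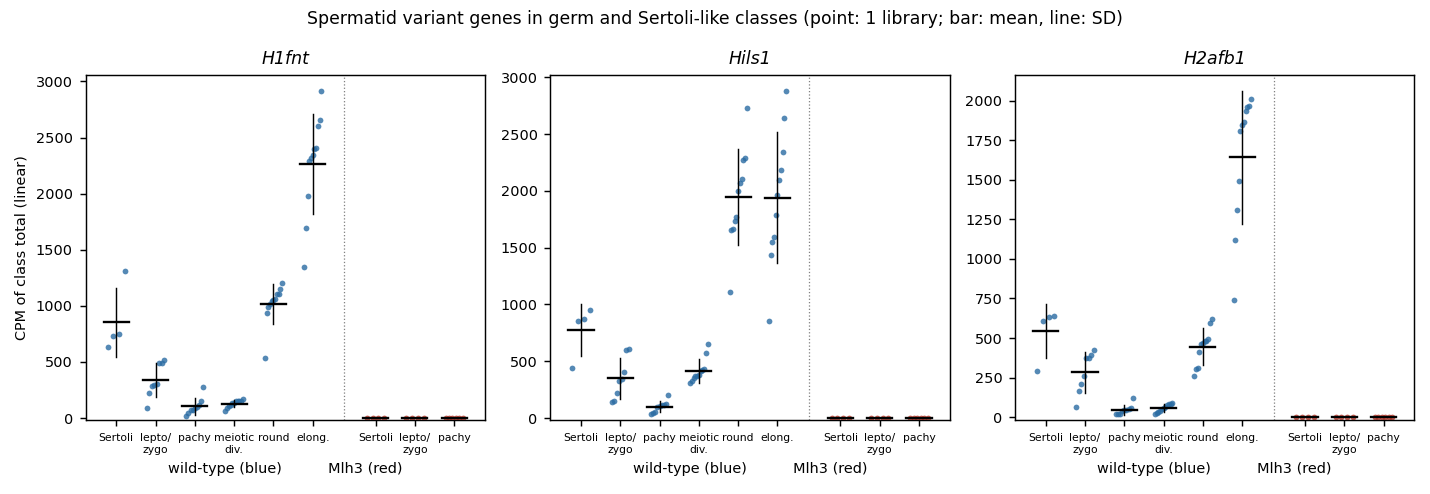
CPM (linear axis from 0) of H1fnt, Hils1 and H2afb1 in Sertoli-like and germ cell classes of wild-type testis and in the 3 matching classes of Mlh3-/- testis; points are libraries, the bar is the mean and the line the SD. Wild-type Sertoli-like cells lie above both spermatocyte classes for H1fnt (mean 855), and all Mlh3-/- points lie at 0.

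The TH2A and TH2B genes and Hist1h2al were close to the counting floor in wild-type. Hist1h2ba had 3 UMIs in leptotene/zygotene-like cells, 5 in pachytene-like, 5 in meiotic division-like, 2 in round spermatid-like and 3 in elongating spermatid-like cells, with a highest mean of 18.6 ± 30.9 CPM in the first class. Hist1h2aa had 2, 1, 5, 8 and 0 UMIs in the same order. Its last step passed the edgeR test (adjusted p = 0.0441), at 8 UMIs against 0 and so at least 1.83-fold lower in elongating than in round spermatid-like cells by a floor of 3 counts over the group, and the call was lost in 6 of 10 alternatives (adjusted p up to 0.346). Hist1h2al had 9 UMIs in meiotic division-like cells, 9 in round spermatid-like cells, 1 in elongating spermatid-like cells and 0 in both spermatocyte classes. No other difference of these 3 genes between neighbouring classes was detectable at this depth.

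H2afx was highest in spermatocytes. Its lowest, median and highest library were at 70.1, 150 and 440 CPM in leptotene/zygotene-like cells (195 ± 131, n = 8), 77.4, 116 and 359 in pachytene-like cells (145 ± 86.5, n = 9) and 13.7, 50.4 and 70.2 in meiotic division-like cells (45.5 ± 18.3, n = 11). The first pair overlapped and the step between them did not pass the test with TMM scaling, and the second pair did not overlap. H2afx fell by 0.95 ± 0.18 on the log2 scale into the meiotic division-like class (edgeR adjusted p = 4.74e-07) and by 2.15 ± 0.22 into the round spermatid-like class (adjusted p = 8.34e-22), where it was at 0, 6.06 and 20.4 (7.98 ± 6.55). The first of these calls was lost in 2 of 12 alternatives, and with at least 50 cells per class the difference was -0.28 (adjusted p = 0.436). Elongating spermatid-like cells had 0, 8.18 and 21.9 (10.4 ± 6.77), an overlapping range. That step was called higher by 0.92 ± 0.33 (adjusted p = 0.016), a call that was lost in 5 of 12 alternatives, among them library totals (0.40) and the fit without the animal block.

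The 2 genes of H3.3 moved differently. H3f3b stood at 893, 1266 and 1967 CPM (lowest, median and highest library) in pachytene-like cells (1249 ± 327, n = 9), at 347, 426 and 583 in meiotic division-like cells (448 ± 77.2, n = 11), at 938, 1066 and 1301 in round spermatid-like cells (1100 ± 128) and at 107, 160 and 202 in elongating spermatid-like cells (158 ± 29.4). No neighbouring ranges overlapped along this fall, return and second fall. The log2 differences were -1.09 ± 0.10 (edgeR adjusted p = 1.1e-25), 1.58 ± 0.09 (adjusted p = 3.2e-68) and -2.30 ± 0.11 (adjusted p = 1.36e-103). Pachytene-like and round spermatid-like cells overlapped, and their order differed by scale: the mean CPM was higher in pachytene-like cells and the TMM-scaled fit was higher in round spermatid-like cells by 0.49 ± 0.10 (adjusted p = 1.8e-06; 56.1% of genes called). Leptotene/zygotene-like cells had 906, 1391 and 2259 (1435 ± 468, n = 8) and did not differ from pachytene-like cells by the test. Within pachytene-like cells the mean was 1461 CPM in cluster 13 and 755 in cluster 14.

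H3f3a had ranges that overlapped between all neighbours. Its lowest, median and highest library were at 43.8, 54.8 and 262 CPM in pachytene-like cells (83.9 ± 68.6), 64.4, 114 and 519 in meiotic division-like cells (162 ± 130), 104, 129 and 532 in round spermatid-like cells (188 ± 134) and 31.0, 44.8 and 164 in elongating spermatid-like cells (63.1 ± 46.3). With the animal as a block it rose by 1.06 ± 0.18 and by 0.52 ± 0.11 on the log2 scale and then fell by 1.02 ± 0.14 (edgeR adjusted p = 1.38e-08, 3.87e-06 and 8.03e-13). The second call was lost in 2 of 12 alternatives, one of them the fit without the block (adjusted p = 0.112). The spread followed the libraries: over whole libraries, it was at 154 CPM in wild-type replicate 1 (enzymatic, MiSeq), 365 in replicate 2 (enzymatic, HiSeq) and 242 in replicate 3 (mechanical, MiSeq), and replicates 4 to 11, mechanical and HiSeq, averaged 84.1 ± 16.8. H2afx was split the other way, at 11.2, 16.1 and 23.3 against 45.3 ± 7.16. The part of dissociation and of the sequencer was not tested.

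Counted over the 4 steps, 0 members rose and 3 fell from leptotene/zygotene-like to pachytene-like cells, 4 rose and 3 fell into the meiotic division-like class, 5 rose and 1 fell into the round spermatid-like class, and 4 rose and 3 fell into the elongating spermatid-like class. Over all 17563 genes tested, the same steps called 12.6% (8.91% higher and 3.72% lower), 42.6% (26.6% and 16%), 51.2% (25.3% and 25.8%) and 36.2% (16.9% and 19.3%). The split at the first step turned with the scaling, from 1564 genes higher and 653 lower to 274 and 1698 with RLE factors, 280 and 2635 in DESeq2 and 510 and 1139 with library totals. At the last step it went from 2965 and 3394 to 3737 and 2707, 3456 and 2420, and 1570 and 5501 in the same order. With library totals the steps between them had 3461 higher and 3936 lower, and 3842 and 5978. The median log2 difference of the 10 members was -0.67, 0.52, 0.69 and -0.04, against 0.13, 0.39, -0.08 and -0.01 for all genes. The call of H1fnt and H2afb1 between pachytene-like and meiotic division-like cells (0.75 ± 0.17 and 0.75 ± 0.24 on the log2 scale) was lost in 2 and in 5 of 12 alternatives, and at a clustering resolution of 1 that of H2afb1 was 0.16 (adjusted p = 0.55).

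The sorted libraries, 1 per gate, gave the levels without clustering, and with no replicate they have no test and their intervals (exact Poisson, 95%) cover counting error only. In the spermatogonia library, H1fnt, Hils1, H2afb1 and Hist1h2al had 0 UMIs of 1168498, which allows up to 2.57 CPM at a floor of 3 counts. The same library held 10 UMIs of Hist1h2ba (8.56 CPM, 4.10 to 15.7) and 13 of Hist1h2aa (11.1 CPM, 5.92 to 19.0). H2afx stood there at 53.9 CPM (41.4 to 69.0), H3f3a at 173 (150 to 198) and H3f3b at 925 (871 to 982). The day-7 testis holds no spermatids. This library was sorted for GFP+ cells, so its 0 counts do not describe the whole testis of that age.

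The 3 Hoechst libraries are named here by their gates, which did not hold 1 class each. By the marker classes the primary spermatocyte gate held 158 cells of the erythroid-like cluster and 22 pachytene-like cells, the secondary spermatocyte gate 73 elongating spermatid-like, 44 round spermatid-like and 17 meiotic division-like cells, and the spermatid gate 210 elongating and 59 round spermatid-like cells. The first of these names depended on the cell filter: with limits on UMIs and genes only, 3 cells of that gate were in the erythroid-like cluster, 161 in an unnamed cluster and 17 in a pachytene-like one, and a gate on DNA content would leave out red cells, which lack a nucleus. Across them the spermatid histones were highest in the spermatid gate. H1fnt was at 149 CPM (85.4 to 243) in the primary spermatocyte gate, 1122 (997 to 1258) in the secondary spermatocyte gate and 1497 (1345 to 1661) in the spermatid gate. Hils1 was at 448 (330 to 594), 2026 (1858 to 2206) and 2462 (2267 to 2670), and H2afb1 at 65.3, 611 (520 to 713) and 1113 (983 to 1256). The secondary spermatocyte gate lay within the range of the round spermatid-like class of wild-type testis for all 3 genes. H2afx was highest in the first gate, at 93.4 CPM (44.8 to 172) in primary spermatocytes, 15.3 in secondary spermatocytes and 16.9 in spermatids (4 UMIs in each of the last 2). Hist1h1t had 4 UMIs in primary spermatocytes (37.3 CPM, 10.2 to 95.6), 0 in secondary spermatocytes and 2 in spermatids. H3f3b was at 878, 698 and 708 CPM in these gates.

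Mlh3-/- testes, which lack a factor of meiotic crossing over, were compared with wild-type over whole libraries and in pachytene-like cells. No Mlh3-/- cell was called round or elongating spermatid-like, against 2680 and 3320 cells in wild-type. The study describes arrest in early meiosis and no spermatozoa in this strain. The spermatid histones were all but missing from the Mlh3-/- libraries. Over whole wild-type libraries H1fnt was at 417, 852 and 974 CPM (lowest, median and highest; mean 831 ± 148, n = 11), Hils1 at 694, 1111 and 1455 (1088 ± 219) and H2afb1 at 221, 536 and 669 (505 ± 141). The 6 Mlh3-/- libraries together held 2 UMIs of H1fnt, 1 of Hils1 and 1 of H2afb1 in 15751953. The wild-type pool was higher by a ratio of 6870 for H1fnt (95% counting interval 1902 to 56729), 17153 for Hils1 (3078 to 677533) and 8082 for H2afb1 (1450 to 319262), and edgeR called all 3 lower (adjusted p = 5.78e-22, 8.44e-23 and 7.59e-21).

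Of the 10 members, 7 were called over whole Mlh3-/- libraries, against 61.3% of 23386 genes. In whole libraries, fewer cells of a type and less RNA per cell cannot be told apart. Hist1h2ba rose most, from 0, 1.45 and 8.40 CPM in wild-type (2.02 ± 2.29, n = 11) to 4.66, 14.2 and 40.5 (17.0 ± 14.3, n = 6), with overlapping ranges and a fitted log2 difference of 3.06 ± 0.48 (edgeR adjusted p = 2.05e-06). Its divergent neighbour Hist1h2aa went from 0, 1.31 and 2.68 (1.38 ± 0.887) to 3.49, 4.22 and 17.7 (6.65 ± 5.54), with no overlap and a difference of 1.43 ± 0.41 (adjusted p = 0.00318), a call that was lost with the replicate number as a block (adjusted p = 0.0672). Both genes of the pair were thus higher over whole Mlh3-/- libraries, and a part of the shared promoter in this was not tested.

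H2afx went from 11.2, 40.05 and 55.9 CPM in wild-type (37.6 ± 14.8) to 59.4, 81.2 and 107 in Mlh3-/- libraries (80.0 ± 18.4), with no overlap. Its fitted difference was smaller, 0.54 ± 0.22 (edgeR adjusted p = 0.0297), since TMM factors ran from 0.834 to 0.948 in wild-type and from 1.18 to 1.63 in Mlh3-/-. Hist1h1t went from 0, 7.73 and 13.2 (7.70 ± 3.52) to 10.5, 16.8 and 46.6 (20.9 ± 13.3), with overlap and a difference of 0.72 ± 0.27 (adjusted p = 0.0221). Both calls were lost in the mechanically dissociated HiSeq libraries alone, with a stricter count filter, with replicates 2 and 3 of equal age merged, and in a fit of these 2 strains only. H3f3a (127 ± 126 CPM against 130 ± 93.3), H3f3b (690 ± 275 against 607 ± 74.6) and Hist1h2al (0.766 against 1.23 ± 1.52) did not pass the test.

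**Figure D3:**
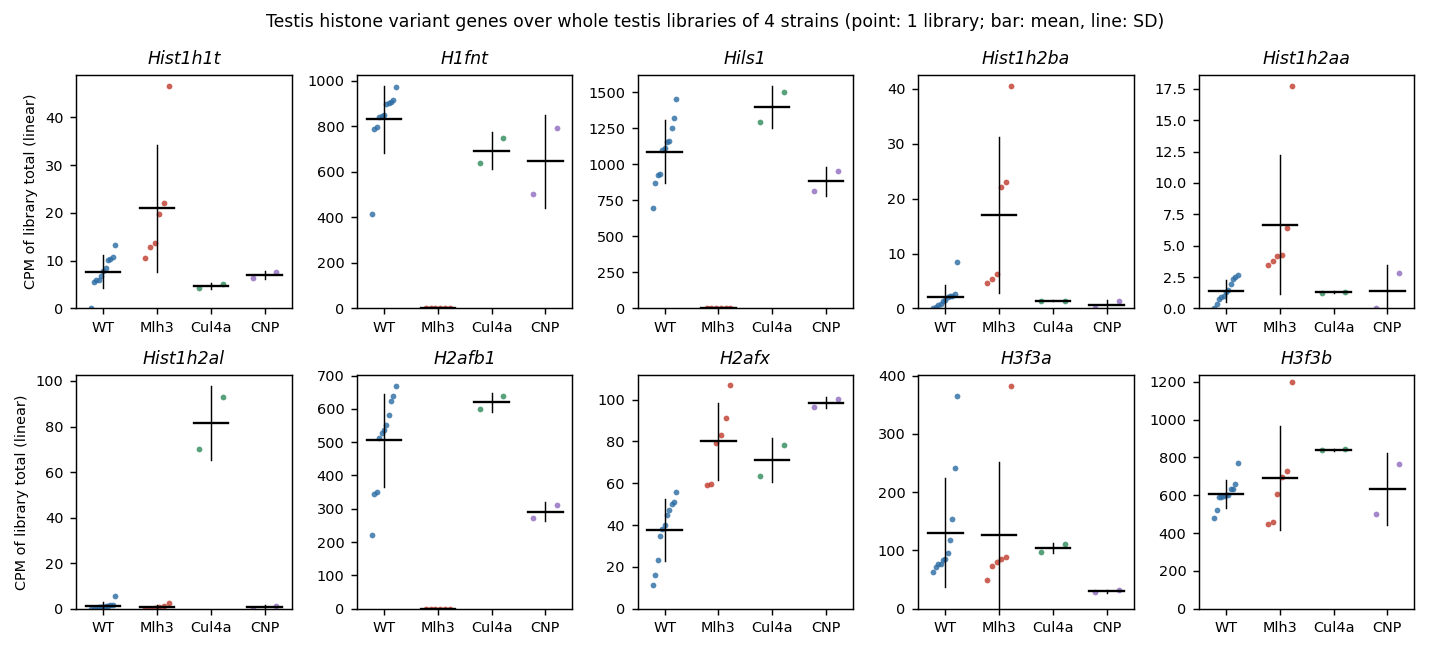
CPM (linear axis from 0) of each of the 10 members over whole testis libraries of wild-type, Mlh3-/-, Cul4a-/- and CNP mice; points are libraries, the bar is the mean and the line the SD. H1fnt, Hils1 and H2afb1 lie at or next to 0 in Mlh3-/- libraries, and Hist1h2al lies at 70.2 and 93.1 in the Cul4a-/- libraries and at most at 5.43 elsewhere.

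Within pachytene-like cells the picture narrowed to the spermatid genes. Of the 10 members, 3 passed the test between Mlh3-/- (888 cells, 6 libraries) and wild-type (9 libraries), all lower, against 11.4% of 15522 genes (6.66% lower). H1fnt, Hils1 and H2afb1 had 0 UMIs in every Mlh3-/- library of this class, so that they were at least 167-fold, 151-fold and 71.8-fold lower than in wild-type by the floor of 3 counts over the group (edgeR adjusted p = 6.45e-18, 2.57e-20 and 5.44e-14). The summed level of the 12 elongating spermatid markers moved with them, from 4181 to 9984 CPM in wild-type pachytene-like libraries down to 721 to 1017 in Mlh3-/-, with 8 of the 12 at 0. The 17 round spermatid markers went from 633 to 1025 down to 142 to 321, with 10 at 0. The wild-type levels lay below those of wild-type Sertoli-like cells, and the part of free RNA in the difference was not tested.

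The members of spermatocytes themselves were not detectably different in this class. H2afx was at 82.5, 126 and 162 CPM (lowest, median and highest library; mean 127 ± 32.1, n = 6) in Mlh3-/- pachytene-like cells, within the wild-type range, and its log2 difference was 0.02 ± 0.21. Hist1h1t stood at 8.93, 23.8 and 120 (39.2 ± 41.1) with a difference of -0.36 ± 0.37, H3f3b at 607, 1145 and 2241 (1203 ± 556) with -0.06 ± 0.20, and H3f3a at 128 ± 79.3 with 0.58 ± 0.26. Hist1h2ba had a mean of 17.9 ± 13.4 CPM against 3.70 ± 6.47 in wild-type, with overlap and a difference of 1.54 ± 0.73 (edgeR adjusted p = 0.177). Hist1h2aa, at 10.8 ± 14.6 against 1 UMI in all of wild-type, had a difference of 2.47 ± 1.09 (adjusted p = 0.138).

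In Cul4a-/- testes, which lack a scaffold of ubiquitin ligases, the member that stood out was the pseudogene row Hist1h2al. The study chose this gene on these samples, so its rise is not independent evidence. Its results describe the gene component that holds Hist1h2al as specific to Cul4a-/- cells. Its methods list the same component among the technical ones, by leading genes that were mostly pseudogenes or ribosomal. In wild-type whole libraries it was at 0, 0.894 and 5.43 CPM (lowest, median and highest; 1.23 ± 1.52, n = 11), and the Cul4a-/- libraries were at 93.1 and 70.2 (902 and 684 UMIs), without overlap and with a log2 difference of 6.11 ± 0.41 (edgeR adjusted p = 1.14e-11). It was the only member called over whole libraries, where 2.06% of 23386 genes were called. It was also high in the class sums. The 2 libraries stood at 65.3 and 25.2 CPM in leptotene/zygotene-like cells, 54.4 and 34.4 in pachytene-like cells, 76.7 and 71.8 in meiotic division-like cells, 167 and 121 in round spermatid-like cells and 51.7 and 17.7 in elongating spermatid-like cells. Sertoli-like cells averaged 88.2, Leydig-like cells 45.2 and unnamed clusters 68.0, so that the row had counts in somatic and germ cell classes alike, and spermatogonia-like cells had 1 UMI. The part of free RNA in the somatic counts was not tested.

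By class, the fit called Hist1h2al higher by 7.48 ± 0.99 on the log2 scale in pachytene-like cells (edgeR adjusted p = 4.2e-07; at least 18.2-fold by the floor, as wild-type had 0 UMIs), 5.41 ± 0.40 in meiotic division-like cells, 6.30 ± 0.34 in round spermatid-like cells and 6.26 ± 0.59 in elongating spermatid-like cells (125 UMIs against 1, a ratio of 121 with a counting interval of 21.3 to 4819). These classes called 0.554%, 14.8%, 6.95% and 4.45% of their genes. The pachytene-like call was lost in DESeq2 (adjusted p = 0.69) and with the replicate number as a block (0.87), the round spermatid-like one within cluster 33 alone (adjusted p = 0.069) and the elongating spermatid-like one within cluster 19 alone (adjusted p = 0.44) and with that block (0.12). Cells of a class often sat in different clusters in the 2 strains: 556 of 577 Cul4a-/- meiotic division-like cells were in cluster 22 against 1 of 2820 in wild-type, round spermatid-like cells were mainly in clusters 25 and 27 against 7, 11 and 17, pachytene-like cells in 39 and 13 against 14 and 13, and elongating spermatid-like cells in 19 and 32 against 5 and 10. Cells of Cul4a-/- were also deeper, with a median of 4611.5 UMIs against 1817 in the pachytene-like class, 4773 against 1424 in the meiotic division-like class, 3637 against 1163 in the round spermatid-like class and 1741 against 706 in the elongating spermatid-like class.

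**Figure D4:**
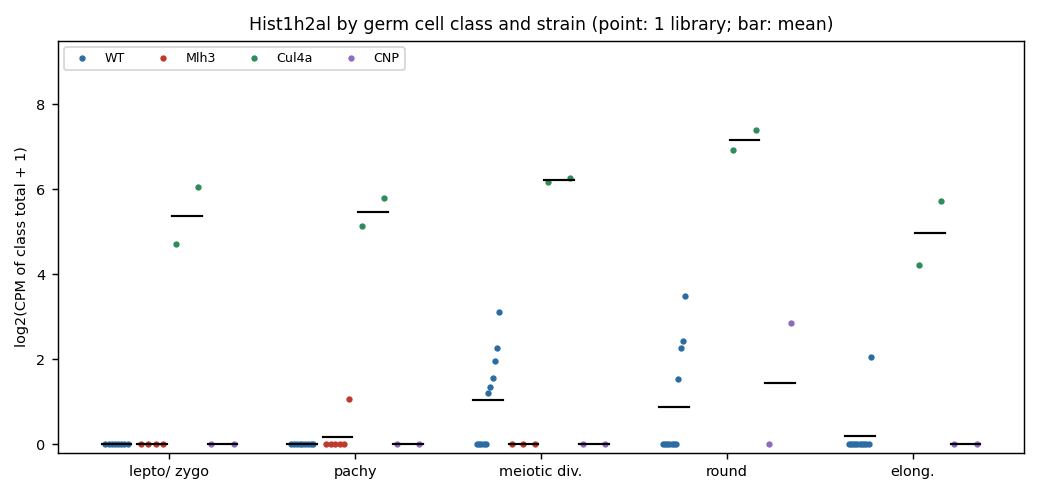
Level of Hist1h2al as log2(CPM + 1) by cell class and strain; each point is a library. The Cul4a-/- libraries lie above the wild-type ones in each class drawn, for example at 167 and 121 CPM in round spermatid-like cells, where the wild-type mean is 1.84.

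Only 2 other members passed the test in Cul4a-/- cells, both in the meiotic division-like class. The make-up of that class differed. Cluster 22 held 556 of 577 Cul4a-/- cells and 1 of 2820 wild-type cells. Cluster 12, whose second-best marker class was round spermatid, held 7 and 766. The part of this make-up was not tested, and wild-type Sertoli-like means of both genes lay above the levels that follow. H1fnt fell from a wild-type range of 61.8 to 170 CPM to 41.9 and 48.0 (log2 difference -1.39 ± 0.28, edgeR adjusted p = 0.000368), and Hils1 from 306 to 649 to 196 and 221 (-0.86 ± 0.26, adjusted p = 0.0173), without overlap in either case. The call of H1fnt was lost in 3 of 16 alternatives, among them the replicate block (adjusted p = 0.146), and that of Hils1 was lost in 4 and turned direction in 1 more, to 0.55 at a clustering resolution of 1. In round spermatid-like cells neither differed by the test: H1fnt was at 787 and 797 against a wild-type mean of 1018 ± 175, and Hils1 at 2288 and 2395 against 1946 ± 425. In elongating spermatid-like cells Hils1 was at 2557 and 2623 (0.77 ± 0.25, adjusted p = 0.0729) and H2afb1 at 2071 and 2108 (0.68 ± 0.26, adjusted p = 0.121), which are values and not calls. H2afx was at 224 and 243 CPM in pachytene-like cells against 145 ± 86.5 in wild-type (0.93 ± 0.26, adjusted p = 0.0786).

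Over the CNP libraries no member passed edgeR's test, which called 0.543% of genes. There were 2267 genes at an unadjusted p under 0.05. DESeq2 called 3 members. Over the alternatives, DESeq2 among them, the count of all genes called ranged from 14 to 958 (reported 127). H2afx lay outside the wild-type range of 11.2 to 55.9 CPM, at 96.7 and 100.5 (log2 difference 1.19 ± 0.32, adjusted p = 0.0894). H3f3a, at 32.2 and 28.4, lay below every wild-type library (lowest 63.0; difference -2.22 ± 0.68, adjusted p = 0.18). With the Mlh3-/- and Cul4a-/- libraries (63.5 and 78.5 CPM in the latter), H2afx stood above all wild-type libraries in each of the 3 strains, which share these controls. In the reported fits it was called only in Mlh3-/- libraries, a call lost in 5 of 12 alternatives. The mix of cells also differs between strains.

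By class, H3f3a in round spermatid-like cells was the only member called in CNP, at 43.9 and 11.8 CPM (7 and 2 UMIs) against a wild-type range of 104 to 532 (log2 difference -2.82 ± 0.58, edgeR adjusted p = 0.00182). CNP against wild-type called 0.652% of genes in this class and 0.464% in the pachytene-like, 0.159% in the elongating spermatid-like and 0.515% in the meiotic division-like class. The call was lost in 8 of 20 alternatives, among them the fits without either CNP library (adjusted p = 0.098 and 0.78). H1fnt (982 and 1203 CPM), Hils1 (1836 and 1964) and H2afb1 (295 and 406) lay within the wild-type ranges in that class, and their differences of -0.03 ± 0.22, -0.16 ± 0.23 and -0.48 ± 0.26 did not pass. In leptotene/zygotene-like cells H2afx was at 618 and 1053 CPM on 27 UMIs in all, above the wild-type highest of 440, and that class was not tested between strains.

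Genes of the surrounding machinery were counted from lists. Of the 18 canonical histone genes tested of 62 listed, 4 rose and 2 fell into the meiotic division-like class, 4 and 1 into the round spermatid-like class and 2 and 3 into the elongating spermatid-like class. The shares of all genes that rose and fell at these 3 steps, against which each list is read, were 26.6% and 16%, 25.3% and 25.8%, and 16.9% and 19.3%. Of the canonical genes, Hist1h2bp had log2 differences of 3.94 ± 0.25, 1.24 ± 0.10 and -2.60 ± 0.14 at the 3 steps. Hist1h4a had 2.78 ± 0.41, 2.55 ± 0.13 and -1.53 ± 0.15 (edgeR, all called). Of 9 other variants tested of 12 listed, 2 rose and 5 fell, 1 rose and 3 fell, and 2 rose and 3 fell at the same steps. H2afz, the gene of H2A.Z, fell by 0.64 ± 0.12 and 1.51 ± 0.12. All 5 transition protein and protamine genes rose at each of these steps, but Tnp1, Tnp2 and the protamine genes also named the elongating spermatid-like class.

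Histone chaperones (26 tested) rose in 6 and fell in 11 cases into the meiotic division-like class, in 1 and 15 into the round spermatid-like class, and in 8 and 7 into the elongating spermatid-like class, with Nap1l4 at -2.71 ± 0.14 in the second step. Of 18 factors of histone removal and acetylation, 7 rose and 6 fell, 4 rose and 9 fell, and 3 rose and 4 fell. These counts include Tnp1, already counted among the transition proteins and a marker that named the elongating spermatid-like class. The remodeller gene Chd5 rose by 2.31 ± 0.23 and 2.38 ± 0.10 and Cdyl by 3.82 ± 0.12 in the second step. Of 16 genes listed around H2AX phosphorylation and its readers, a mixed list, 10 fell and 1 rose into the meiotic division-like class. Topbp1 (-2.87 ± 0.24) and Mdc1 (-1.80 ± 0.18) were among those that fell. The median log2 difference of the list there was -0.99 against 0.39 over all genes tested. In Mlh3-/- pachytene-like cells 3 of the 15 tested rose and none fell, against 4.74% and 6.66% of all genes, with Atr at 1.18 and Mdc1 at 0.72, and H2afx itself did not pass the test. Mdc1 turned direction within cluster 14 alone (-0.0593).

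The genes most like each member were taken by Pearson's r of log2(CPM + 20) over 50 sums of library and class in wild-type, among 8957 genes, a description over points that share libraries and depth. H2afb1 was most like Tnp2, Tnp1 and Prm1 (r = 0.97 each), the transition protein and protamine genes. These genes also named the elongating spermatid-like class, so their profile over classes is not independent of the naming. H1fnt was most like Actrt2, Spata3 and Hmgb4 (0.96 each), and Hils1 like Actl7a (0.96), Tmem247 and Fam229a (0.95 each). H2afx was most like Uqcrc2, Ptbp2 (0.95 each) and Rbbp4 (0.94), H3f3b like Rnf17 (0.91), Cul1 and 1700052N19Rik (0.89 each), Hist1h1t like Flywch2 (0.87), Ttf1 (0.83) and Gars (0.81), and H3f3a like Fam103a1 (0.76), Grcc10 (0.70) and Gm3676 (0.69). Among the members, r was 0.92 between H1fnt and H2afb1, 0.84 between H1fnt and Hils1 and -0.77 between Hils1 and H2afx.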

How the data were processed

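Single-cell libraries of mouse testis were made by Drop-seq. The authors demultiplexed reads with bcl2fastq, aligned them with STAR 2.5.3a to GRCm38 (mm10) and deposited tables of UMI counts per gene and cell barcode, raw and not normalized. The study's methods name Drop-seq_tools for the count matrices, and the strand setting is not given in the sources used here. Total counts per library ran from 107117 to 9745302, which limits rows of a few UMIs. Every column was mapped to a sample.

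Samples were grouped by the labels. Members and gene lists were chosen with earlier results of these data known. The genes named are the 10 members, up to 4 called genes per list and comparison by adjusted p, and the 3 genes most like each member that reached 20 CPM in 1 class. Cells needed 200 UMIs and 50 genes, no more than 1 SD below the library mean and an mt-Rnr2 scaled level of at most 2, which took 48642 barcodes to 44404, 44340 and 36619. Doublets were not called; an alternative left out the 5% of cells with most UMIs. Cells were clustered with scikit-learn 1.9.0, igraph 0.11.9 and leidenalg 0.10.2 (40 components, 20 neighbours, resolution 2) without 45 of the histone genes, and clusters were named from fixed markers of which at least 3 were raised 2-fold.

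UMIs were summed per library and class and tested with edgeR 4.0.16 (R 4.3.3; quasi-likelihood, TMM, genes with at least 5 counts, adjusted p of 0.05), with the animal as a block between classes of wild-type and without a block between strains. The SE of a log2 difference was worked back from the test, as the difference over the square root of its F statistic. Where a group had no UMIs, that SE carries little information. Alternatives were DESeq2 1.42.0, RLE factors, other count filters, HiSeq mechanical libraries, other class, cell and call limits, a replicate block and leaving out replicates. Fits within single clusters and with library totals were added after seeing the data. Intervals came from scipy 1.17.1 under Python 3.11.15 and cover counting error only.

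Tested on simulated data, the fit of meiotic division-like against pachytene-like cells (17563 genes) recovered 48% of 2-fold and 70% of 4-fold changes with 18 false calls of 136. Mlh3-/- in pachytene-like cells (15522 genes) gave 36% and 71% with 6 of 113, Cul4a-/- in round spermatid-like cells (17019 genes) 39% and 79% with 9 of 127, and CNP over whole libraries (23386 genes) 10% and 47% with 5 of 62.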

Additional observations from a re-analysis of the deposited data

Results flagged for a closer look

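In 22 of 41 groups of members and libraries tested by Dixon's criterion, the highest library stood apart from the rest. Chance gives about 1 in 20, but the criterion also takes any group in which 1 library has a UMI or a few and the others are at or near 0, and no explanation was tested.

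Over whole Mlh3-/- libraries, replicate 1 stood apart for H3f3a (382 CPM) and H3f3b (1198 CPM), and replicate 2 for Hist1h1t (46.6 CPM) and Hist1h2aa (17.7 CPM). The few counts of the spermatid genes lay in replicate 5 for H1fnt (0.641 CPM), replicate 6 for Hils1 (0.158 CPM) and replicate 3 for H2afb1 (0.460 CPM). In Mlh3-/- pachytene-like cells the same libraries stood apart, replicate 1 for H3f3a (286 CPM) and H3f3b (2241 CPM) and replicate 2 for Hist1h1t (120 CPM), and replicate 5 held the counts of Hist1h2al (1.08 CPM). In Mlh3-/- leptotene/zygotene-like cells they were replicate 4 for Hist1h1t (77.8 CPM) and replicate 2 for Hist1h2ba (59.8 CPM) and Hist1h2aa (120 CPM). Replicates 1 and 2 are the Mlh3-/- libraries sequenced on MiSeq.

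In wild-type pachytene-like cells, replicate 5 stood apart for H2afx (359 CPM) and H3f3b (1967 CPM), replicate 3 for H3f3a (262 CPM), replicate 7 for H2afb1 (119 CPM), replicate 10 for Hist1h2ba (18.8 CPM) and replicate 8 for Hist1h2aa (5.96 CPM). In wild-type leptotene/zygotene-like cells they were replicate 3 for Hist1h2ba (86.8 CPM) and replicate 8 for Hist1h2aa (60.8 CPM).

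The unnamed wild-type clusters entered no comparison of classes, but their cells were part of the whole-library sums. They held the spermatid genes too, at 773 CPM for H1fnt, 841 for Hils1 and 430 for H2afb1 over all their cells.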

How the results depend on the processing

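Of 130 alternative counts of called members, 110 stayed within 1.5 times the reported count and 20 did not. From leptotene/zygotene-like to pachytene-like cells, DESeq2 called 5 and RLE scaling 5 in place of 3. Over all genes, DESeq2 called 2915 at this step in place of 2217, and the RLE split is given above. A fold limit of 1 (log2) left 4 of 7 calls into the meiotic division-like class. Ranges of the all-gene counts over the alternatives close this section. Over 4 classes of Cul4a-/- cells the count of 6 went to 12 in HiSeq mechanical libraries and 11 with at least 50 cells, and ranged from 4 to 5 without single replicates. The CNP count of 1 went to 2 in DESeq2, 2 with no count filter, 4 in HiSeq mechanical libraries, 3 with at least 50 cells, 0 with filterByExpr, 0 without the top 5% of cells and 0 to 0 without single replicates. Over whole libraries, Cul4a-/- had 2 in HiSeq mechanical libraries in place of 1, and CNP had 3 in DESeq2, 3 in HiSeq mechanical libraries and 1 with library totals in place of 0.

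Same-numbered libraries did not deviate together (correlations of -0.28 to 0.31), so the replicate block is no pairing. With the replicate block, CNP classes had 4 calls, whole Cul4a-/- libraries 2 and whole CNP libraries 2, and Hist1h1t and Hist1h2aa in whole Mlh3-/- libraries, H1fnt in Cul4a-/- meiotic division-like cells and Hist1h2al in 2 Cul4a-/- classes were lost among the members. Over all genes, that block raised the CNP calls from 83 to 791 in meiotic division-like and from 111 to 416 in round spermatid-like cells. Over whole CNP libraries they went from 127 to 958.

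Of the called genes' alternatives, 2191 kept direction and call, 297 kept direction only and 8 reversed: Hils1 (-0.0061) and Cdyl (-0.073) from round to elongating spermatid-like cells with library totals, Hils1 in Cul4a-/- meiotic division-like cells at resolution 1 (0.55), Hist1h2bp (0.020), Mdc1 (-0.0593) and Supt16 (-0.018) of Mlh3-/- pachytene-like cells within cluster 14, Hist2h2ac of Cul4a-/- round spermatid-like cells with the replicate block (-0.16) and Tnp1 of Cul4a-/- elongating spermatid-like cells within cluster 5 (-0.10). The cause was not tested. No value came from the first step with at least 50 cells or at resolution 1.

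Scaling moved the median log2 difference of all genes. From round to elongating spermatid-like cells it was -0.01 with TMM, 0.16 with RLE and -0.46 with totals, and from pachytene-like to meiotic division-like cells 0.39, 0.21 and 0.09. The share of calls that were higher moved from 70.5% to 13.9% (RLE), 9.6% (DESeq2) and 30.9% (totals) at the first step, from 46.6% to 58.0%, 58.8% and 22.2% at the last, and from 85.0% to 39.6% (DESeq2) over whole Cul4a-/- libraries.

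Counts over all genes stayed within 1.5 times between wild-type classes and over whole Mlh3-/- libraries. Elsewhere they ranged over the alternatives from 245 to 2280 (reported 1768) for Mlh3-/- pachytene-like cells. For Cul4a-/- they ranged from 8 to 1035 (86) in pachytene-like, 321 to 3756 (2388) in meiotic division-like, 24 to 2500 (1183) in round spermatid-like and 4 to 1551 (645) in elongating spermatid-like cells and from 105 to 2020 (481) over whole libraries. For CNP the ranges were 24 to 122 (72), 24 to 791 (83), 7 to 416 (111), 0 to 96 (23) and 14 to 958 (127).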
